A study of Mus musculus with 2 samples.

Results

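Interferon response genes are switched on when a cell senses interferon, and 9 of them were followed here across the cell classes of the mouse hippocampus: Ifitm3, Ifitm2, Bst2, Ifit3, Isg15, Irf7, Oasl2, Ifi27l2a and Ifi27. They are 9 of the 41605 genes in the count tables, chosen by their symbols, and each symbol had 1 row. The counts are unique molecular identifiers (UMIs, 1 per captured RNA molecule) from droplet-based single-cell RNA sequencing with the 10x 3' kit, version 3. Of the 2 libraries, each held cells pooled from the hippocampi of 3 wild-type C57BL/6 mice aged 10 weeks, which the series calls adult and male. The series sets enzymatic dissociation for 30 min at 37 °C against mechanical dissociation at 4 °C, followed by a Percoll gradient to take away debris and myelin, and asks what digestion does to the RNA of brain cells. The labels tie neither library to a method, so they stay unassigned as library 1 and library 2 and are not compared as groups. The files of library 2 carry another sample number than its title.

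Interferons are secreted proteins that bind receptors on the cell surface. The receptor's JAK kinases pass the signal to transcription factors, which enter the nucleus and bind the interferon-stimulated response element in the promoters of these genes. Several products block viruses at the membrane or act on viral RNA, and the feedback inhibitor USP18 then dampens the signal. In the brain, microglia (the resident macrophages) and the cells of blood vessels are known to respond to interferon.

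The response element is built from repeats of the letters GAAA. GAAA followed after any 2 letters by a further GAAA was therefore searched on both strands of the 300-base RefSeq window from 250 bases before to 50 bases after each gene's start (GRCm38.p6), and overlapping matches were counted. A window was given for 7 of the 9 genes, and 5 of the 7 held a match, against 3.44% of all 32851 windows. The windows shown, of Isg15, Bst2, Ifit3 and Ifitm3, are all from the 5 that held a match. Capitals mark the matches, which read TTTC, 2 letters and TTTC where they lie on the other strand.
Isg15, chr4:156200769-156201068, minus strand: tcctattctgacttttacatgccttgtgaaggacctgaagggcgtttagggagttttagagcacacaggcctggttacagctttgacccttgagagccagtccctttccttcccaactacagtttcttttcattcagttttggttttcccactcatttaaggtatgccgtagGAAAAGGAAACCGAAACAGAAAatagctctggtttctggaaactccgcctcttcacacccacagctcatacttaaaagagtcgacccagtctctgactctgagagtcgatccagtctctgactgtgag
Bst2, chr8:71537423-71537722, minus strand: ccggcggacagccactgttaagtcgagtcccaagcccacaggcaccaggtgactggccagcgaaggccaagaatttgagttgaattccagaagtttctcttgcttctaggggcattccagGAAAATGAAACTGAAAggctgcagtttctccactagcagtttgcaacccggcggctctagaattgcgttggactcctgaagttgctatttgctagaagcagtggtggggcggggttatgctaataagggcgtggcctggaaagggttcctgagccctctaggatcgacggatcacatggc
Ifit3, chr19:34583279-34583578, plus strand: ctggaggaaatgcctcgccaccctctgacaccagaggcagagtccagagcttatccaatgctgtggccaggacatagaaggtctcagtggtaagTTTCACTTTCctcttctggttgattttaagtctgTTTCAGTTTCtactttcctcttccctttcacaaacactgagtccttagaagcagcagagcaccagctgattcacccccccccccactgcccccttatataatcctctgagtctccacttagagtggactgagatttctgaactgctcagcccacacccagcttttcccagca
Ifitm3, chr7:141010695-141010994, minus strand: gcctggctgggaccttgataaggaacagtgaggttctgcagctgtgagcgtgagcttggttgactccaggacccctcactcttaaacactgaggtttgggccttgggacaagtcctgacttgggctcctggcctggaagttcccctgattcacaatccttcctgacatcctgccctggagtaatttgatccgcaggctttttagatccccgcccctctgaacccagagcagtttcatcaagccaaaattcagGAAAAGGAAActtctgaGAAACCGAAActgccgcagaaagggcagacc
The Isg15 window held 3 overlapping matches that began 78, 72 and 66 bases before the start. The Bst2 window held 2 that overlap, beginning 130 and 124 bases before it, and the Ifit3 window held 2 that began 156 and 122 bases before it. In Ifitm3 both matches lay within the transcript, from bases 3 and 20. Ifitm2 held 1, which began 46 bases upstream, and the letters were not in the windows of Irf7 and Oasl2. A match of letters is a description and not a binding site.

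Cells were kept at 1000 or more UMIs, 500 or more genes and at most 10% mitochondrially encoded UMIs. Once barcodes marked as doublets were also removed, 5989 of 12306 barcodes were left in library 1 and 2075 of 6448 in library 2. The median depth of the kept cells was 1695 UMIs in library 1 and 6433 in library 2. A cell received a class when at least 3 markers of the class were detected and its markers made up at least 60% of the cell's marker UMIs, and the names end in "-like" because they rest on RNA markers alone. Such a gate is a range and not a type: 1053 kept cells of library 1 and 99 of library 2 lay between 50 and 70%. Classes of at least 50 cells were compared. In library 2 these were 173 endothelial-like, 83 pericyte or smooth muscle-like, 1505 microglia-like and 50 oligodendrocyte-like cells. In library 1 they were 687 microglia-like cells, 3035 that were neuron-like, 266 astrocyte-like and 129 oligodendrocyte-like ones. In each of these classes all markers of its own list were detected. Levels are UMIs of a gene per 1000000 UMIs of the class (CPM), given with exact Poisson 95% intervals, and shares of cells have exact binomial intervals. Both cover counting error only, since each library is a single pool with no replicate, and no p-value is given. The libraries shared 19 cell barcodes, of which 3 were kept.

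Among the compared classes, the summed level of the 9 genes was highest in cells of the vessel wall. It was 3483 CPM (3413 to 3553) in library 2's endothelial-like cells and 2060 CPM (1922 to 2206) in pericyte or smooth muscle-like cells, against 347.7 CPM (336.3 to 359.4) in microglia-like and 214.9 CPM (176.1 to 259.7) in the oligodendrocyte-like class. In library 1 it was 339.7 CPM (311.5 to 369.6) in the microglia-like class, against 154.3 CPM in astrocyte-like, 144.5 CPM in oligodendrocyte-like and 73.1 CPM in the neuron-like class. Library 1 held 5 endothelial-like cells, too few to give a level. Ifitm3 and Ifitm2 together make up most of the vessel sum, and Bst2 and Ifi27 most of the microglia-like one, so the genes are taken in turn below.

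**Figure D1:**
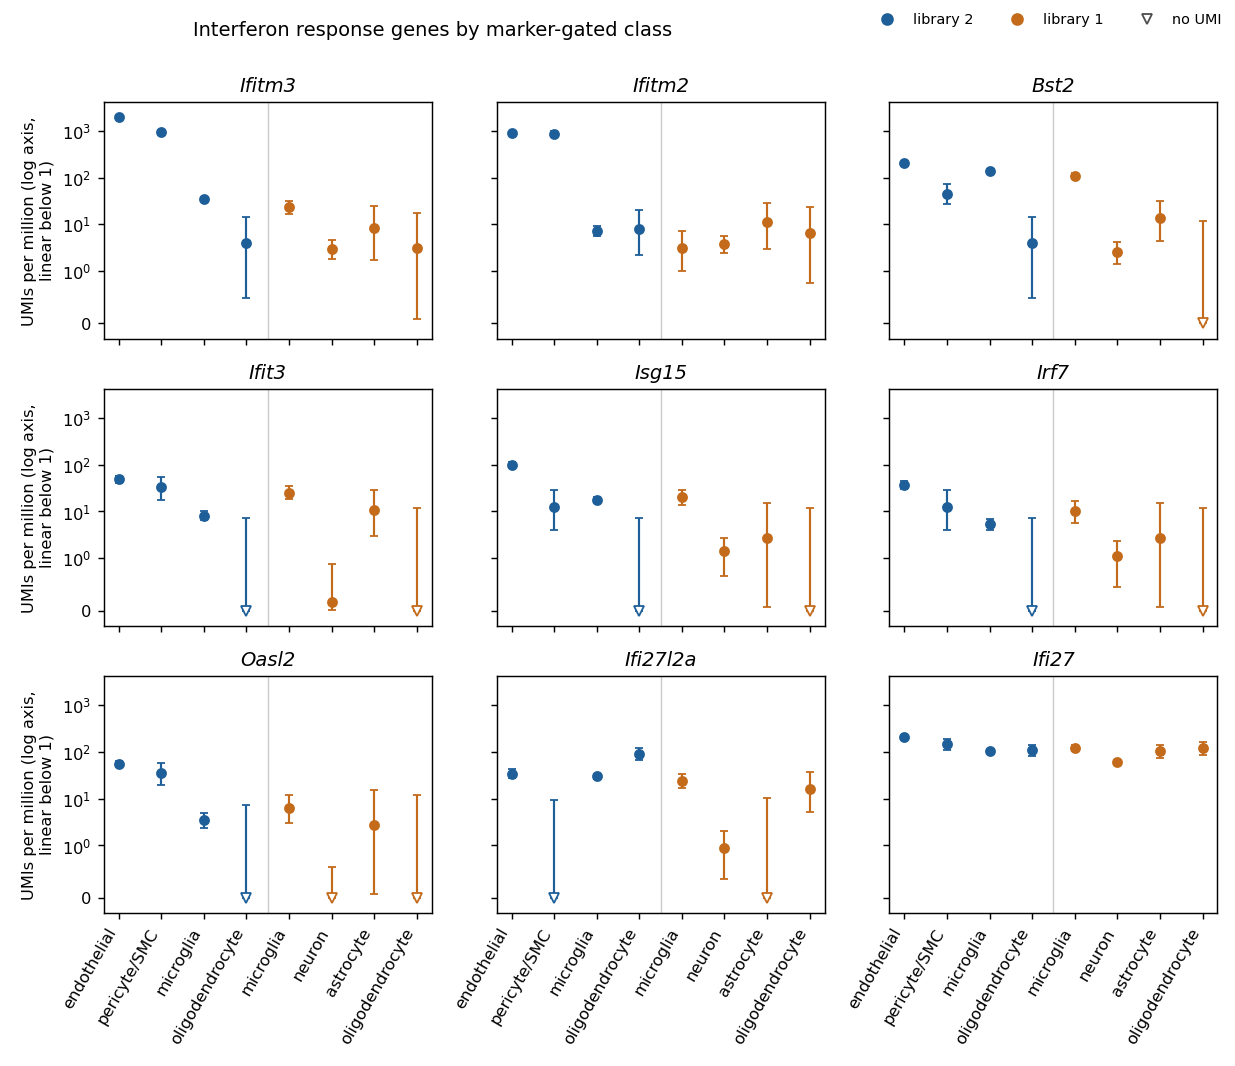
Level of each gene (CPM, log axis that is linear below 1) in each class of at least 50 cells, library 2 in blue and library 1 in orange, with exact Poisson 95% intervals; open triangles mark classes with no UMI. Ifitm3 and Ifitm2 stand at 862 to 1924 CPM in the vessel classes and at or below 35.1 CPM elsewhere, Bst2 stands at 108.2 and 140.5 CPM in microglia-like cells of libraries 1 and 2, and Ifi27 lies between 60.04 and 204.2 CPM.

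Ifitm3 and Ifitm2 encode interferon-induced transmembrane proteins that hinder the fusion of viruses with cell membranes. Both genes lie on chromosome 7 on the minus strand, Ifitm3 at 141009586 to 141010770 and Ifitm2 at 140954837 to 140955987 (GRCm38). They are close paralogs. How reads that fit both were counted is not stated. Ifitm3 stood at 1924 CPM (1872 to 1976) in endothelial-like cells and 919 CPM (828 to 1018) in pericyte or smooth muscle-like cells of library 2. There it was at 35.1 CPM (31.5 to 38.9) in microglia-like and 4.02 CPM (0.487 to 14.5) in the oligodendrocyte-like class. That is 54.9-fold higher in endothelial-like than in microglia-like cells (49.3 to 61.3) and 2.09-fold higher than in pericyte or smooth muscle-like cells (1.88 to 2.33), and no interval of these 4 levels overlapped another. The 10 endothelial-like cells with most Ifitm3 held 42.3% of its UMIs and 28.8% of all UMIs of the class. As a mean over cells of the CPM of each cell, Ifitm3 was at 1210 CPM in endothelial-like, 874.9 CPM in pericyte or smooth muscle-like and 32.7 CPM in microglia-like cells. In microglia-like cells without a macrophage or monocyte marker UMI the pooled level was 19.7 CPM. Of the endothelial-like cells 89.6% held an Ifitm3 UMI, as did 94.0% of the pericyte or smooth muscle-like cells, against 9.24% of microglia-like cells and 2.00% of oligodendrocyte-like cells. With each cell thinned to 1000 UMIs these shares were 59.0%, 61.4%, 2.26% and 0%. In library 1 Ifitm3 was at 23.4 CPM (16.5 to 32.3) in the microglia-like class, against 8.27 CPM in astrocyte-like, 3.21 CPM in oligodendrocyte-like and 3.03 CPM in the neuron-like class. The intervals of the last 3 overlapped, and those of astrocyte-like (1.71 to 24.2) and oligodendrocyte-like cells (0.0813 to 17.9) also reached into the microglia-like one. Without the 7 microglia-like cells with most UMIs of the 9 genes the level was 5.75 CPM, against 5.63 CPM in astrocyte-like cells without their own 1%. Without cells that held a macrophage or monocyte marker UMI it was 9.94 CPM in microglia-like cells, with no such filter on the astrocyte-like class. The 7 cells were left out by their UMIs of these same genes, so a fall was fixed in advance. With 3 UMIs of Ifitm3 in the astrocyte-like class, the order of these 2 classes cannot be told.

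Ifitm2 did not separate the 2 vessel classes. It was at 878 CPM (843 to 914) in endothelial-like cells and 862 CPM (773 to 958) in pericyte or smooth muscle-like cells, a ratio of 1.02 (0.910 to 1.14). The level was 7.21 CPM (5.65 to 9.06) in the microglia-like class of library 2 and 8.03 CPM (2.19 to 20.6) in the oligodendrocyte-like class. It was 122-fold higher in endothelial-like than in microglia-like cells (96.5 to 156). In library 1 it stood at 3.16 CPM in the microglia-like class, 11.0 CPM in astrocyte-like, 6.42 CPM in oligodendrocyte-like and 3.82 CPM in the neuron-like class, with intervals that all overlapped. Among 8264 genes that reached 50 CPM in at least 1 class, the 5 whose level followed that of Ifitm3 most closely over the 8 class and library pairs were Oasl2, Rras, Tpm4, Hspb1 and Btg3. Their Pearson correlations on the log2(CPM + 10) scale were 0.991, 0.990, 0.987, 0.987 and 0.985, a description over 8 points from 2 libraries. All 5 were highest in endothelial-like cells, which follows from ranking by likeness to Ifitm3, itself highest there. Oasl2 reached 50 CPM in that class only.

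Bst2 encodes tetherin, a protein that holds budding virus particles at the cell surface, and lies on chromosome 8 at 71534255 to 71537456 on the minus strand. Its level was highest in microglia-like cells among the compared classes of library 1 and in endothelial-like cells among those of library 2. In library 1 it stood at 108.2 CPM (92.6 to 125.6) in the microglia-like class, against 13.8 CPM (4.48 to 32.2) in astrocyte-like and 2.55 CPM (1.46 to 4.14) in the neuron-like class. The 129 oligodendrocyte-like cells of library 1 held no UMI of it. Its microglia-like level was 11.2-fold what 3 counts, taken as the limit a zero allows, would give there. That ratio leaves out the counting error of the microglia-like level. In library 2 Bst2 was highest in endothelial-like cells at 200.9 CPM (184.5 to 218.5), followed by microglia-like cells at 140.5 CPM (133.3 to 148.0) and pericyte or smooth muscle-like cells at 45.0 CPM (26.6 to 71.1). Oligodendrocyte-like cells stood last at 4.02 CPM (0.487 to 14.5), and none of these 4 intervals overlapped. With a mitochondrial limit of 20% the level in pericyte or smooth muscle-like cells was 163.1 CPM. A UMI of Bst2 was found in 768 of 1505 microglia-like cells of library 2 (51.0%) and in 135 of 687 of library 1 (19.7%), against 4.00% of oligodendrocyte-like cells of library 2 and 0.494% of neuron-like cells of library 1. Median depths were 6495 and 2210 UMIs in the microglia-like cells, against 11210 UMIs in the oligodendrocyte-like and 1862 UMIs in the neuron-like cells. After thinning to 1000 UMIs the microglia-like shares were 13.6% in library 2 and 9.02% in library 1.

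Ifit3, Isg15 and Oasl2 encode effectors that interferon induces strongly. IFIT proteins act on viral RNA, ISG15 is a ubiquitin-like protein that is joined to other proteins, and OASL2 is related to the 2'-5'-oligoadenylate synthetases. Ifit3 has a near-identical neighbour, Ifit3b, and its values are uncertain to the extent that reads fit both. Their genes lie on chromosome 19 at 34583531 to 34588731, chromosome 4 at 156199424 to 156200818 and chromosome 5 at 114896936 to 114912234. All 3 stood highest in endothelial-like cells of library 2. Isg15 was at 100.3 CPM (88.8 to 112.9) there, against 17.4 CPM (14.9 to 20.1) in microglia-like and 12.5 CPM (4.06 to 29.1) in pericyte or smooth muscle-like cells. Ifit3 was at 49.4 CPM (41.4 to 58.5) in endothelial-like cells, 32.5 CPM (17.3 to 55.5) in pericyte or smooth muscle-like cells and 8.10 CPM (6.44 to 10.1) in the microglia-like class. Oasl2 was at 54.9 CPM (46.5 to 64.4), 35.0 CPM (19.1 to 58.7) and 3.46 CPM (2.41 to 4.81) in the same 3 classes. The vessel classes overlapped in their intervals for Ifit3 and Oasl2 but not for Isg15, which was 8.03-fold higher in endothelial-like than in pericyte or smooth muscle-like cells (3.40 to 24.9). Oligodendrocyte-like cells of library 2 held no UMI of the 3 genes, which allows up to 6.03 CPM.

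In library 1, Ifit3 reached 25.3 CPM (18.1 to 34.5) in the microglia-like class, against 11.0 CPM (3.00 to 28.2) in astrocyte-like and 0.159 CPM (0.00403 to 0.887) in the neuron-like class. Without the 7 cells with most UMIs of the 9 genes Ifit3 was at 5.75 CPM, against 11.3 CPM in astrocyte-like cells without their own 1%. Without cells that held a macrophage or monocyte marker UMI it was at 7.95 CPM, also under the astrocyte-like level. Isg15 stood at 20.2 CPM (13.8 to 28.6) in the microglia-like class, against 2.76 CPM in astrocyte-like and 1.43 CPM in the neuron-like class. Oasl2 stood at 6.33 CPM (3.03 to 11.6) in the microglia-like class, against 2.76 CPM in astrocyte-like cells, and it had no UMI in 3035 neuron-like cells. Its microglia-like level was 13.2-fold what 3 UMIs would give in the neuron-like class. That ratio leaves out the counting error of the microglia-like level. For all 3 genes the astrocyte-like intervals overlapped those of microglia-like cells, and oligodendrocyte-like cells held no UMI, which allows up to 9.64 CPM.

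Irf7 encodes the transcription factor that drives the production of interferon alpha and amplifies the response. It lies on chromosome 7 at 141262706 to 141266481. Its level was 37.3 CPM (30.4 to 45.3) in endothelial-like cells, 12.5 CPM (4.06 to 29.1) in pericyte or smooth muscle-like cells and 5.33 CPM (4.01 to 6.96) in the microglia-like class of library 2. The first was 7.002-fold higher than the last (4.99 to 9.93). In library 1 Irf7 was at 10.1 CPM (5.78 to 16.4) in the microglia-like class, against 2.76 CPM (0.0698 to 15.4) in astrocyte-like and 1.12 CPM (0.448 to 2.30) in the neuron-like class.

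Ifi27 and Ifi27l2a encode small hydrophobic proteins of the same family and are neighbours on chromosome 12, at 103434211 to 103440239 on the plus strand and 103442167 to 103443680 on the minus strand. Ifi27 was found in every compared class, in 20.8% of endothelial-like cells of library 2 and 5.44% of neuron-like cells of library 1 after thinning to 1000 UMIs, and no class that lacks it was there to give the share from free RNA. Its level was highest at 204.2 CPM (187.6 to 221.9) in endothelial-like cells of library 2 and lowest at 60.04 CPM (54.1 to 66.4) in the neuron-like class of library 1, and it stood at 118.9 CPM and 101.0 CPM in the microglia-like class of libraries 1 and 2. Of the classes too small to compare, the 25 choroid plexus-like cells of library 1 held 702.8 CPM of Ifi27 and the 33 of library 2 held 950.4 CPM. Ifi27l2a was at 34.0 CPM (27.5 to 41.7) in endothelial-like cells and 29.7 CPM (26.5 to 33.3) in the microglia-like class of library 2, a ratio of 1.15 (0.898 to 1.45). No UMI of it was found in the 83 pericyte or smooth muscle-like cells. Its endothelial-like level was 4.54-fold what 3 UMIs would give there. That ratio leaves out the counting error of the endothelial-like level. Of the 93 Ifi27l2a UMIs of endothelial-like cells 44.1% were in 2 cells, and its mean over cells was 22.6 CPM. In library 1 it was at 24.0 CPM (17.0 to 33.0) in the microglia-like class, against 0.956 CPM in the neuron-like class and no UMI in astrocyte-like cells.

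A single cell carried most of the Ifi27l2a level of oligodendrocyte-like cells, which at 90.4 CPM was the highest of the 4 classes of library 2. Of the 45 UMIs, 40 were in 1 cell of 11202 UMIs, and the other 5 were in 3 cells. That cell held 654 UMIs of oligodendrocyte markers and no UMI of the microglia or endothelial markers. In library 1 all 5 UMIs of the class were in 1 cell, which likewise held no UMI of those 2 marker lists.

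To set these levels against all genes, each class was compared with the mean of the other classes of its library among genes that reached 10 CPM in a class, and a gene was called when it differed at least 4-fold on the log2(CPM + 10) scale. In endothelial-like cells of library 2 the calls were 2 of the 9 genes higher, Ifitm3 by 2.55 and Isg15 by 2.47 (log2), where 3.81% of all genes tested were called higher. None of the 9 was called lower there, where 5.61% of all genes were. In microglia-like cells of library 1, 1 of the 8 genes tested was higher, Bst2 by 2.94 (log2), where 5.28% of all genes were. None of the 8 was called lower there, where 6.48% of all genes were. In microglia-like cells of library 2 none of the 9 was called higher, where 4.77% of all genes were, and Ifitm3 and Ifitm2 were called lower, at -4.41 and -5.11 (log2), where 8.54% were. In oligodendrocyte-like cells of library 2, 5 of the 9 were called lower, where 10.1% of all genes were, and none higher, where 4.88% were. In pericyte or smooth muscle-like cells Ifi27l2a was called lower, where 5.63% of all genes were, and none was higher, where 3.89% were. In library 1, Bst2 was called lower in neuron-like cells, where 5.64% of all genes were, and in oligodendrocyte-like cells, where 3.49% were. None was called higher in neuron-like cells (3.88% of all genes), oligodendrocyte-like cells (2.68%) or astrocyte-like cells (2.55%). The median log2 ratio over the genes tested was 1.53 in endothelial-like cells against -0.21 for all genes. In microglia-like cells it was 1.15 against -0.32 in library 1 and -0.80 against -0.24 in library 2, where 2 of the 3 other classes are vessel classes.

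In microglia-like cells most of these genes sat in very few cells. In library 2 the 16 cells (1% of the class) with most UMIs of a gene held 82.9% of the UMIs of Oasl2, 72.0% of those of Ifit3, 69.3% of those of Isg15 and 63.0% of those of Irf7. They held 55.2% of the UMIs of Ifi27l2a, 53.8% of those of Ifitm3 and 45.2% of those of Ifitm2, but 14.3% of those of Bst2 and 8.70% of those of Ifi27. Thus 7 of the 9 genes had at least 25% of their UMIs in 16 cells, where 29.5% of all 11861 genes with at least 20 UMIs in the class did, with a median over those genes of 16.1%. Oasl2, with 35 UMIs, and Irf7, with 54, would pass with 1 UMI in each of 16 cells. Their passing was therefore fixed by their low counts. Among genes of 50 to 500 UMIs in the class, a range set after the counts had been seen, 6 of 6 did, where 23.6% of 6726 genes did. Irf7 is among these 6.

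**Figure D2:**
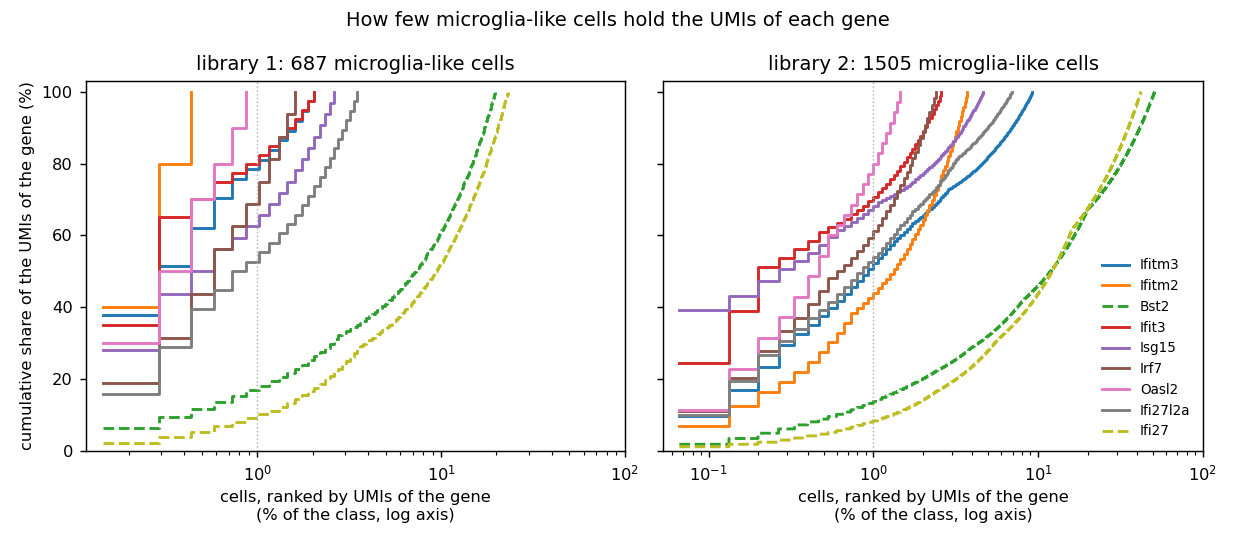
Cumulative share of the UMIs of each gene (y, percent) over microglia-like cells ranked by their UMIs of that gene (x, percent of the class, log axis) in each library; the dotted line marks 1% of the cells. Bst2 and Ifi27 (dashed) rise slowly, while the other 7 genes of library 2 reach from 45.2% to 82.9% within the 1% of cells with most. In library 1 Ifit3, Ifitm3, Isg15 and Ifi27l2a reach from 55.3% to 82.5%, and the curves of Ifitm2, Irf7 and Oasl2, with under 20 UMIs each, are set by their low counts. In library 2 Oasl2 and Irf7 rest on 35 and 54 UMIs.

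Library 1 gave the same picture with fewer counts. Its 7 cells with most held 82.5% of the 40 Ifit3 UMIs, 81.1% of the 37 Ifitm3 UMIs, 65.6% of the 32 Isg15 UMIs and 55.3% of the 38 Ifi27l2a UMIs, against 18.1% of the Bst2 and 10.1% of the Ifi27 UMIs. That made 4 of the 6 genes with at least 20 UMIs, where 24.5% of 8705 genes did. In the narrower range of 50 to 500 UMIs only Bst2 and Ifi27 were present and neither did, where 1.94% of genes did.

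Several of the genes were found together in the leading cells, which were ranked by their UMIs of these same genes. The microglia-like cell of library 2 with most of the 6 genes Ifit3, Isg15, Irf7, Oasl2, Bst2 and Ifi27l2a had 69 of the 176 Isg15 UMIs of the class, with 20 UMIs of Ifit3, 10 of Ifi27l2a, 9 each of Bst2 and Ifitm3, 6 of Irf7 and 4 of Oasl2 in 8342 UMIs. It held 172 UMIs of the other type I interferon-induced genes, 104 of the microglia markers and none of the border-associated macrophage or monocyte markers. The second cell of library 2 had 30 UMIs of Ifi27l2a and 23 of Bst2, 1 each of Ifit3, Isg15 and Irf7, and none of Oasl2. The third had UMIs of all but Ifi27l2a. The leading cell of library 1 had 14 of Ifit3, 9 of Isg15, 6 of Ifi27l2a, 4 of Bst2, 3 each of Irf7 and Oasl2 and 14 of Ifitm3 in 3173 UMIs, and 137 of the other type I interferon-induced genes. Among the 36 microglia-like cells of library 2 with an Irf7 UMI, 30.6% also held one of Isg15 (16.4 to 48.1), against 4.02% of the 1469 without (3.07 to 5.15), at median depths of 7337 and 6474 UMIs. In library 1, 6 of 11 cells with Irf7 also held Isg15 (54.5%, 23.4 to 83.2), against 1.78% of the 676 without.

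At least 2 of these 6 genes were found in 102 of 173 endothelial-like cells of library 2 (59.0%, 51.2 to 66.4), 11 of 83 pericyte or smooth muscle-like cells, 140 of 1505 microglia-like cells (9.30%, 7.88 to 10.9) and none of 50 oligodendrocyte-like cells. In library 1 it was 16 of 687 microglia-like cells (2.33%, 1.34 to 3.76), 1 of 266 astrocyte-like cells, 2 of 3035 neuron-like cells and none of 129 oligodendrocyte-like cells. The shares were lower after thinning. Thinned to 1000 UMIs, 8.09% of endothelial-like cells held at least 2, against 1.40% of microglia-like cells of library 2, and in library 1 the microglia-like share was 1.31%. Without Bst2, which is common in microglia-like cells, at least 2 of the other 5 were found in 76 endothelial-like cells, 39 microglia-like cells of library 2 and 10 of library 1.

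**Figure D3:**
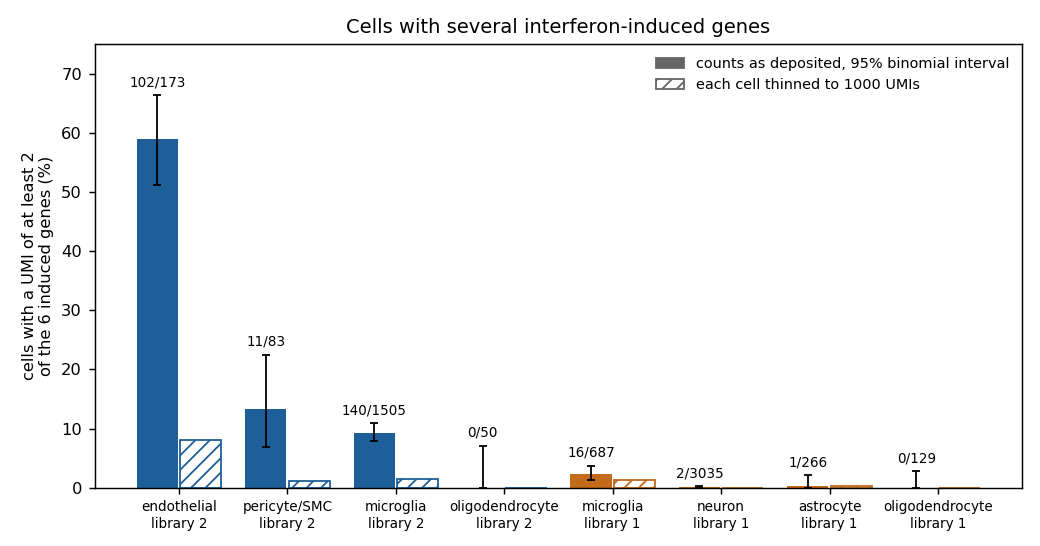
Share of cells (y, percent) with a UMI of at least 2 of Ifit3, Isg15, Irf7, Oasl2, Bst2 and Ifi27l2a, by class and library; filled bars are the counts as deposited with exact binomial 95% intervals and cell numbers, hatched bars are cells thinned to 1000 UMIs. Endothelial-like cells stand highest either way, at 59.0% and 8.09%.

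In library 1 the 16 microglia-like cells with at least 2 of the 6 genes also held more of the other interferon-induced genes. The other type I interferon-induced genes, a list of 43 that holds none of the 9, summed to 10410 CPM in them, against 1670 CPM in the other 671 cells, 6.23-fold higher (5.58 to 6.94) at like median depth (2196 and 2210 UMIs). The JAK-STAT genes were 2.15-fold higher (1.496 to 3.01), at 985.8 CPM against 457.7 CPM, and the interferon receptors stood at 1068 CPM against 1705 CPM. Genes beside the 9 were ranked by the lower bound of the ratio among 554 candidates with at least 10 UMIs in the 16 cells. The 10 leading genes were Ccl5, Ifit2, Slfn5, Ifit1, Rsad2, Ifit3b, Ifi204, Cxcl10, Ccl12 and Rtp4, of which 8 are on the interferon lists. Genes rare in the other cells could pass that limit only through the 16, and the share of the 554 on the lists is not given. The 8 are therefore a description only. Ccl5, Cxcl10 and Ccl12 are chemokines. The Ccl5 lead came from 51 UMIs in 2 of the 16 cells and the Cxcl10 lead from 12 UMIs in 1 cell, while Ccl12 was in 9 of the 16 cells and 45 of the other 671. Of the 380 UMIs of the 43 genes, 137 and 74 were in 2 cells. The 16 cells held no UMI of the 7 border-associated macrophage markers and 4 UMIs over the 6 monocyte markers, 2 of them of Ms4a4c, against 19 UMIs in the other 671 cells. The erythrocyte markers stood at 54.8 CPM in them, against 4871 CPM. Among the 659 microglia-like cells without any UMI of these 2 marker lists, 13 cells held at least 2 of the 6 genes, and the other type I genes stood at 5140 CPM against 1657 CPM, 3.10-fold higher (2.61 to 3.67), with Ccl12 first of the leading genes and 1 of the 10 (Lgals9) on the lists. That set lacks the 2 leading cells, which held 1 and 2 monocyte marker UMIs. Without them and the other cells left out, Ifit3 was at 7.95 CPM (4.11 to 13.9) and Ifitm3 at 9.94 CPM (5.56 to 16.4) in the microglia-like class of library 1, Isg15 at 11.9 CPM, Irf7 at 5.96 CPM and Oasl2 at 3.31 CPM. The part of monocytes in these cells was not tested beyond these values.

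**Figure D4:**
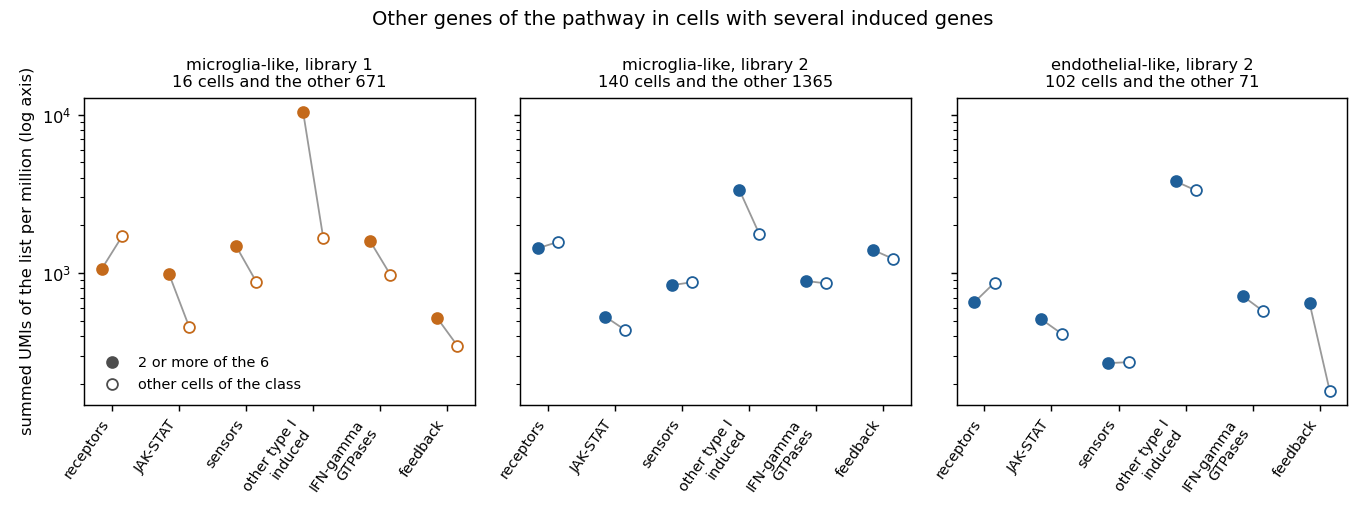
Summed level of the other pathway lists (CPM, log axis) in cells with at least 2 of the 6 genes (filled) and in the other cells of the class (open), for microglia-like cells of each library and endothelial-like cells of library 2. The other type I induced genes stand 6.23-fold, 1.91-fold and 1.14-fold higher in the 3 panels.

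In library 2 the 140 microglia-like cells with at least 2 of the 6 genes differed from the rest in more than the interferon lists. The other type I list stood at 3353 CPM in them, against 1758 CPM in the other 1365 cells, 1.91-fold higher (1.84 to 1.98), at median depths of 7822 and 6392 UMIs. The leading genes were H2-Eb1, H2-Aa, Cd74 and H2-Ab1, which present antigen on MHC class II, followed by Ifi206, Ms4a7, Cybb, Clec12a, Ifit2 and Col14a1. In the whole class H2-Eb1 was in 13 of the 140 cells and 15 of the other 1365. Among cells that gate and cluster both called microglia-like, 129 held at least 2 of the 6 genes. Their leading 10 genes were Ifit2, Oasl1, Ube2c, Ifit1, Ifit3b, Pbk, Mki67, Ifi204, Prc1 and Nusap1, with no MHC class II gene. Markers of some other cells rose with the 140 cells. The 7 border-associated macrophage markers stood at 93.5 CPM against 13.3 CPM, with 2 of the 7 at 0 in the 140 cells. The 6 monocyte markers stood at 84.1 CPM against 10.7 CPM, with 2 of the 6 at 0. The erythrocyte markers stood at 12960 CPM against 3474 CPM. Without any cell that held a UMI of the macrophage or monocyte markers, 106 of 1314 cells (8.07%) still held at least 2 of the 6 genes, and the other type I list was 1.62-fold higher (1.55 to 1.69), at 2851 CPM against 1763 CPM. The leading 10 genes there included Ifit3b, Ifit2, Ifi204, Slfn5 and Rtp4, the 5 that are on the lists, and the erythrocyte genes Hbb-bt, Alas2, Hbb-bs and Hba-a1. They too had to pass a limit on UMIs in the selected cells, so they are a description only. In that smaller set Ifitm3 was at 19.7 CPM, Ifi27l2a at 16.1 CPM, Isg15 at 16.9 CPM and Bst2 at 123.1 CPM, with 70.6% of the Isg15 UMIs in 14 cells. The part of macrophages, monocytes and erythrocyte RNA in the levels of the whole class was not tested beyond these values.

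The blood and border cells that the gate kept apart had high levels of these genes in small numbers. In library 2, the 7 monocyte-like cells held 5734 CPM of the 9 genes (5319 to 6172), with Ifitm3 at 2596 CPM and Ifi27l2a at 1634 CPM. The 16 border-associated macrophage-like cells held 2883 CPM (2573 to 3221), with Bst2 at 817.3 CPM, Ifitm3 at 725.5 CPM and Ifi27l2a at 578.5 CPM. The 11 neutrophil-like cells held 2003 CPM (1763 to 2266), most of it Ifitm3 at 985.5 CPM and Ifitm2 at 778.9 CPM, with no UMI of Bst2 or Irf7. The 6 fibroblast-like cells held 5184 CPM (4603 to 5819), with Ifitm3 at 2214 CPM and Ifitm2 at 2142 CPM, but 1 cell held 62.5% of these UMIs. At a stricter gate of 75% and 4 markers, 1 of these 6 cells and 2 of the 7 monocyte-like cells kept their class. These values describe the few cells held and are not compared. Choroid plexus-like cells of both libraries held no UMI of Ifit3, Isg15 or Oasl2.

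In endothelial-like cells the 10 cells with most, a larger part of the class than the 1% taken above, held from 34.8% (Ifi27) to 48.2% (Ifit3) of the UMIs of 8 of the 9 genes. The median over all 9347 genes with at least 20 UMIs was 41.4%, and Ifi27l2a stood at 80.7%. All 9 genes passed 25%, as did 99.6% of all genes and 99.8% of those with 50 to 500 UMIs, so this limit says nothing about them. The 102 cells with at least 2 of the 6 genes had a median of 11860 UMIs, against 4566 UMIs in the other 71, and the other type I list stood at 3796 CPM in them against 3330 CPM, 1.14-fold higher (1.08 to 1.21). Their leading genes were Lcn2, Ackr1, Hamp, Ch25h, Ifitm1, Cd74, Ptgs2, Lrg1, Icam1 and Adgrg6. Ackr1 marks the endothelium of venules, and Lcn2, Icam1 and Ptgs2 are genes of inflamed endothelium. Markers of some other cells rose in the 102 cells. The 10 pericyte or smooth muscle markers stood at 928.4 CPM against 414.4 CPM, 2.24-fold higher (1.91 to 2.64). The 6 fibroblast markers stood at 36.0 CPM against 15.1 CPM, 2.39-fold higher (1.05 to 6.69), with none of either list at 0 in the 102 cells. The microglia, neutrophil, neuron, astrocyte, oligodendrocyte, choroid plexus and erythrocyte markers were lower in them, such as microglia at 87.4 CPM against 379.2 CPM. The part of other cells in the result was not tested. Lcn2 was in 35 of the 102 cells and 2 of the other 71, and Socs3, a feedback inhibitor of cytokine signalling, was 6.09-fold higher (4.38 at the lower bound).

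Beside the 9 genes, the pathway lists are taken in turn, with the counts called beside the shares of all genes. No compared class of either library held more than 1 UMI of the 11 interferon genes, which was a UMI of Ifnb1 in microglia-like cells of library 2. Of 5 receptor genes tested, 4 were called higher in microglia-like cells of library 1, where 5.28% of all genes were, and 2 in those of library 2, where 4.77% were. Ifngr1, a chain of the interferon gamma receptor, was at 1069 CPM and 889.5 CPM in the microglia-like class of libraries 1 and 2, against 100.3 CPM in endothelial-like cells and at most 114.9 CPM in the other classes. Ifnar1, a chain of the type I receptor, was by contrast highest in endothelial-like cells at 199.8 CPM, against 67.0 CPM in the microglia-like class of library 2. None of the 7 JAK-STAT genes was called in these classes, where 3.81% to 5.28% of all genes were called higher and 5.61% to 8.54% lower. With so few genes, none called is near those shares. Jak1 stood at 116.0 CPM in endothelial-like and 216.0 CPM in the microglia-like class of library 2.

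Of the nucleic acid sensors and their adaptors, 4 of 11 tested were called higher in microglia-like cells of library 1 and 3 of 10 in those of library 2, where the same 5.28% and 4.77% of all genes were. In endothelial-like cells 2 of 10 were called lower, where 5.61% of all genes were. Tmem173, which encodes STING, was at 331.4 CPM and 328.0 CPM in the microglia-like class of libraries 1 and 2, against 13.5 CPM in endothelial-like cells. Tlr7, a sensor of single-stranded RNA, was at 125.2 CPM and 145.6 CPM in the microglia-like cells, against 0.732 CPM in endothelial-like cells. Of the other type I induced genes, 6 of 30 tested were called higher in endothelial-like cells, where 3.81% of all genes were. In microglia-like cells it was 9 of 25 in library 1 (5.28% of all genes) and 2 of 30 in library 2 (4.77%), where 2 were also lower (8.54%). Slfn5 was at 490.8 CPM, Sp100 at 110.2 CPM, Ifit1 at 71.0 CPM and Rsad2 at 51.2 CPM in endothelial-like cells, against 7.11, 11.7, 1.78 and 1.38 CPM in the microglia-like class of library 2. Ifitm1, a paralog of Ifitm3, stood at 1901 CPM in pericyte or smooth muscle-like cells and 321.0 CPM in endothelial-like cells, against 1.19 CPM in the microglia-like class.

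Of the GTPases and factors induced by interferon gamma, 4 of 13 were called higher in endothelial-like cells and 1 lower, where 3.81% and 5.61% of all genes were. In microglia-like cells of library 1, 2 of 9 tested were higher (5.28% of all genes). In those of library 2, 1 of 13 was higher (4.77%) and 1 lower (8.54%). Gbp4 and Gbp5, guanylate-binding proteins that act on intracellular pathogens, were at 57.1 and 79.8 CPM in endothelial-like cells, against 0.296 and 16.2 CPM in the microglia-like class of library 2. Irf8, a transcription factor that microglia need, was at 789.4 CPM and 603.7 CPM in the microglia-like class of libraries 1 and 2, against 2.20 CPM in endothelial-like cells. Of the feedback inhibitors, 1 of 4 tested was called higher in microglia-like cells of library 1 (5.28% of all genes) and 2 of 6 in those of library 2 (4.77%). In endothelial-like cells 1 of 6 was called lower (5.61%). Usp18 was at 17.6 CPM in endothelial-like cells, against 3.46 CPM in the microglia-like class, and Ptpn6 was at 215.0 CPM and 165.1 CPM in the microglia-like class of libraries 1 and 2, against 1.10 CPM in endothelial-like cells. These lists were chosen with earlier results of these data known, so their counts are given as descriptions.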

How the data were processed

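The authors deposited counts, 1 matrix of genes by barcodes for each library; the submitters' processing notes name Cell Ranger 3.0.1 and GRCm38.p5. Each count is a number of molecules with no normalization. From these counts, barcodes were kept by depth, genes and mitochondrial share, and doublets were scored with Scrublet in scanpy 1.11.5. The automatic threshold removed 1220 barcodes of library 1. It marked 0% in library 2, where the 89 highest scores (an expected 5.16%) were removed instead. Cells were classed by 15 marker lists, and UMIs were summed per class with intervals from scipy 1.17.1. The comparison with all genes was tested on simulated counts with known changes.

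The 9 genes, the marker lists and the pathway lists were chosen with earlier results of these data known. Of each pathway list, the genes named are among the 6 with the highest level in a class or those at least 4-fold above every other compared class. Leading genes of cells with at least 2 of the 6 genes are the 10 with the highest lower bound of the ratio, among genes with at least 10 UMIs in those cells. For endothelial-like cells, the same ranking was applied. Alternatives changed the depth, mitochondrial, doublet and gate limits, the class assignment, the averaging and the thinning. Those that leave out microglia-like cells by markers, cluster or erythrocyte share, and the range of 50 to 500 UMIs, were added after seeing the data. Results on some genes are not reported here.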

Additional observations from a re-analysis of the deposited data

Results flagged for a closer look

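UMIs of the 9 genes were also found in barcodes that the comparisons do not use. In library 2, the 1406 barcodes over the mitochondrial limit held 7003 of them, 25.1% of all UMIs of these genes in that library, at 845.8 CPM (826.1 to 865.8). The 124 kept cells of library 2 with no class held 2837, at 2526 CPM (2434 to 2621), with Ifitm3 at 971 UMIs and Ifi27l2a at 407 UMIs. In library 1, the 418 barcodes over the mitochondrial limit held 358, of which 238 were of Ifi27, and the 1833 kept cells with no class held 337, of which 210 were of Ifi27.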

How the results depend on the processing

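No paired analysis was possible because the 2 libraries are in no group. Of 576 levels of single genes under 8 alternatives, 510 stayed within the counting interval of the reported value and 66 did not, 21 of them without the 1% of cells with most UMIs of these genes. The summed level in microglia-like cells of library 1, 339.7 CPM as reported, was 302 CPM with no doublets removed, 305.1 CPM with clusters named from the markers, 307.6 CPM with the stricter gate and 252.4 CPM without the 1% of cells. In library 2, 347.7 CPM as reported, it was 325 CPM with clusters, 327.5 CPM with the stricter gate and 281.9 CPM without the 1% of cells. Without cells that held a macrophage or monocyte marker UMI it was 280.3 CPM in library 1 and 290.6 CPM in library 2, and with gate and cluster both microglia-like 305.1 CPM and 324.7 CPM. In endothelial-like cells, 3483 CPM as reported, it was 3374 CPM with a mitochondrial limit of 20%, 2787 CPM as a mean over cells and 3404 CPM without the 1% of cells. Without that 1%, in microglia-like cells of library 1, Ifit3 and Ifitm3 were at 5.75 CPM each. The share of cells with at least 2 of the 6 genes was 1.31% in microglia-like cells of library 1 both thinned to 1000 UMIs and at 3 or more genes. In those of library 2 it was 1.40% thinned to 1000 UMIs, 2.77% thinned to 2000, 2.19% at 3 or more genes and 2.59% without Bst2. In endothelial-like cells it was 8.09%, 16.7%, 39.3% and 43.9% under the same 4 settings. The cause of these shifts was not tested. Depth limits the small classes most: 3 UMIs, the limit a zero allows, are 9.64 CPM in oligodendrocyte-like and 8.27 CPM in astrocyte-like cells of library 1, and 7.49 CPM in pericyte or smooth muscle-like and 6.03 CPM in oligodendrocyte-like cells of library 2.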

Other observations

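Isg15 was also found in barcodes dominated by haemoglobin. In library 2, 230 barcodes had at least 50% of their UMIs from erythrocyte markers, 9 of them kept, and they held 158 Isg15 UMIs in 50 barcodes, which is 64.5 CPM (54.8 to 75.4) and 18.1% of all Isg15 UMIs of the library. The same barcodes held 25 UMIs of Irf7, 1 of Ifit3 and none of Oasl2 or Ifi27l2a. In library 1, 24 such barcodes held 6 UMIs of Isg15, at 66.2 CPM (24.3 to 144), and 4 of Irf7 in 1 barcode.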
